A study of Mus musculus with 26 samples.

Results

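Cell cycle genes were read in neurons sorted from the mouse retina at postnatal day 6. Neurons leave the cell cycle when they are born, but whether every sorted cell had done so was not measured. The genes were taken from a fixed list of 36 names covering cyclins, cyclin-dependent kinases (CDKs), replication and mitosis genes and CDK inhibitors, of which 35 were measured among 18193 genes on the array. The cyclin gene Ccnb1 was not analysed here. Each gene was represented by its brightest probe set, and its level is given as log2(intensity + 16) after quantile normalization of the 26 arrays, a scale on which an intensity of 1 lies at 4.09 and the overall median at 6.14. A level difference of 1 on this scale is a 2-fold difference, and folds of dim genes are understated by the added 16.

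The study compared 13 neuron subtypes with 2 arrays each, and the paired samples came from different litters. Retinas were dissociated with papain, fluorescent or labelled cells were sorted by flow cytometry, and RNA was amplified in 2 rounds. The labels name the reporter of each line but not, beyond the line names, the transgene that drives it. The 5 amacrine subtypes, interneurons of the inner retina, were starburst cells (C57BL/6, Kusabira Orange+ Thy1–), MP cells (mixed C57BL/6 x CD1, CFP+ VC1.1+), AII cells (Swiss Webster x C57BL/6, GFP+), the glycinergic J subset (C57BL/6, YFP+) and the GABAergic PaxCre subset (C57BL/6, GFP+). The 2 bipolar subtypes, which relay photoreceptor signals, were ON bipolar cells (C57BL/6, GFP+) and MP bipolar cells (mixed C57BL/6 x CD1, CFP+ VC1.1–). All 6 retinal ganglion cell subtypes, the output neurons, were gated as Thy1+. BD, J, W3 and W7 ganglion cells were YFP+ and Isl2 ganglion cells bgal+, all on C57BL/6, and Cdh3 ganglion cells were GFP+ on a strain that the labels give as Swiss Webster x C57BL/7 for replicate 1 and Swiss Webster x C57BL/8 for replicate 2. The PaxCre, J and AII amacrine sorts and the ON bipolar sort had no antibody gate.

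In the cell cycle, D-type cyclins with Cdk4 or Cdk6 start the release of E2F transcription factors, which turn on genes for DNA replication. Cyclin E and cyclin A with Cdk2 then drive the S phase, and Cdk1 with cyclin B drives mitosis. Late cell cycle genes commonly carry CCAAT boxes and a cell cycle genes homology region (CHR) in their promoters. Retinal neurons leave the cycle when they are born, held there in part by the CDK inhibitors p21, p27 and p57 (Cdkn1a, Cdkn1b and Cdkn1c), while progenitors, glia, microglia and vessel wall cells of the young retina can still divide.

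The promoters of 6 members are shown because these genes separate the patterns described next: Mki67 and Top2a were called in both the PaxCre amacrine and the J ganglion comparison, Cdk1 and Ccnb2 in the J ganglion comparison, and Mcm6 and Rrm2 in the PaxCre comparison. Each window holds the 250 bases before the transcript start given in the promoter table, read 5′ to 3′ on the gene's strand, from RefSeq (build GRCm38.p6). The RefSeq gene extent reaches 71 bases into the Mki67 window and 10 bases into the Top2a window, and ends at the edge of the other 4. Capitals mark CCAAT boxes, CHR elements (TTTGAA or TTCGAA) and E2F sites (TTTCCCGC, TTTGGCGC, TTTCGCGC or TTTGGCGG), each searched on both strands. The windows lie at chr7:135716380-135716629 (minus strand, Mki67), chr11:99024190-99024439 (minus, Top2a), chr10:69352913-69353162 (minus, Cdk1), chr9:70421555-70421804 (minus, Ccnb2), chr1:128359706-128359955 (minus, Mcm6) and chr12:24708004-24708253 (plus, Rrm2).
Mki67: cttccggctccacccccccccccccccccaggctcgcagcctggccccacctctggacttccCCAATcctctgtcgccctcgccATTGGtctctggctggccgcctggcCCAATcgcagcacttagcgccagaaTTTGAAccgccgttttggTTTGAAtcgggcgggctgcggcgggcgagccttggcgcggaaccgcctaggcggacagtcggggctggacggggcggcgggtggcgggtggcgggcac
Top2a: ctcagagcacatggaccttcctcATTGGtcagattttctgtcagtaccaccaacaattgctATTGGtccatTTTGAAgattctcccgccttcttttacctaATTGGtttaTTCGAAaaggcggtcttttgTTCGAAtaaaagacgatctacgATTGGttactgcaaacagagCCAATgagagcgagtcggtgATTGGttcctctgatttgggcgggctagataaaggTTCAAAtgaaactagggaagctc
Cdk1: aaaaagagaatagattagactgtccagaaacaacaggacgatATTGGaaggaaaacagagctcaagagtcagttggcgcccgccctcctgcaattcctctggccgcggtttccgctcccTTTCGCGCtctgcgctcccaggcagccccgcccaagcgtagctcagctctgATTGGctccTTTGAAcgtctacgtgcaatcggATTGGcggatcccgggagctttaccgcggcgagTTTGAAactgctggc
Ccnb2: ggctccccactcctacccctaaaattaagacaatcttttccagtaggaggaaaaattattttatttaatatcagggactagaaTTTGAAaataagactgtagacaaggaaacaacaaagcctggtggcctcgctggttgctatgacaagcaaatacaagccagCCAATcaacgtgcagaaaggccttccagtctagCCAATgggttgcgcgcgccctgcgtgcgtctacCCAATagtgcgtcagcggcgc
Mcm6: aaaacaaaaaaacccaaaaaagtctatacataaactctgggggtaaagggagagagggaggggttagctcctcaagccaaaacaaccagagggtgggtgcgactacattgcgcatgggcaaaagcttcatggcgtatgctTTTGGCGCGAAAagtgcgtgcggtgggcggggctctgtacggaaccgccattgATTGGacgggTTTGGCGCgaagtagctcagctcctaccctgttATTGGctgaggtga
Rrm2: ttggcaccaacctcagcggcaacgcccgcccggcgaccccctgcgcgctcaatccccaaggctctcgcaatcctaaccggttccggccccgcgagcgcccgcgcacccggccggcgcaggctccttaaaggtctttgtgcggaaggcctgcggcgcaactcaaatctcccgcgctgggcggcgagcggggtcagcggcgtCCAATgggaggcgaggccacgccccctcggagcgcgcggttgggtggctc
The Mki67 window held 2 CHR matches and 3 CCAAT boxes, and the Top2a window 4 and 6. The Mcm6 window held 3 E2F matches and no CHR match, and 2 of its E2F matches overlap within TTTGGCGCGAAA. The Rrm2 window held a single CCAAT box. RefSeq entries were found for 29 of the 36 members, with 32 promoters of 300 bases (250 before and 50 after the start). CHR and CCAAT matches occurred together in 37.5% of these against 7.52% of all 32851 promoters of that length, CHR matches in 37.5% against 19.2%, CCAAT boxes in 68.8% against 37.4%, and E2F matches in 21.9% against 2.37%. A match describes letters in the window and is not a measured binding site.

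Ganglion cell arrays lay on a higher scale, with a median intensity per array between 61.5 and 74.8 (12 arrays) where the 14 others had between 37.4 and 47.1, so scale and class cannot be told apart in the deposited values. The precision is limited by 2 arrays per subtype. Of the 35 measured members, 32 were bright enough to be tested, with at least 2 arrays above the overall median. E2f1, a transcription factor of S phase entry, Bub1b, a spindle checkpoint kinase, and Plk1, a mitotic kinase, were too dim: their highest subtype means were 5.81, 5.54 and 5.88. A member was called when its limma adjusted p was under 0.05 and its difference at least 1 on the log2 scale. 2 ganglion cell arrays differed from their replicates in these genes, Cdh3 replicate 1 and BD replicate 1, and results that rest on them are given with and without them.

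**Figure D1:**
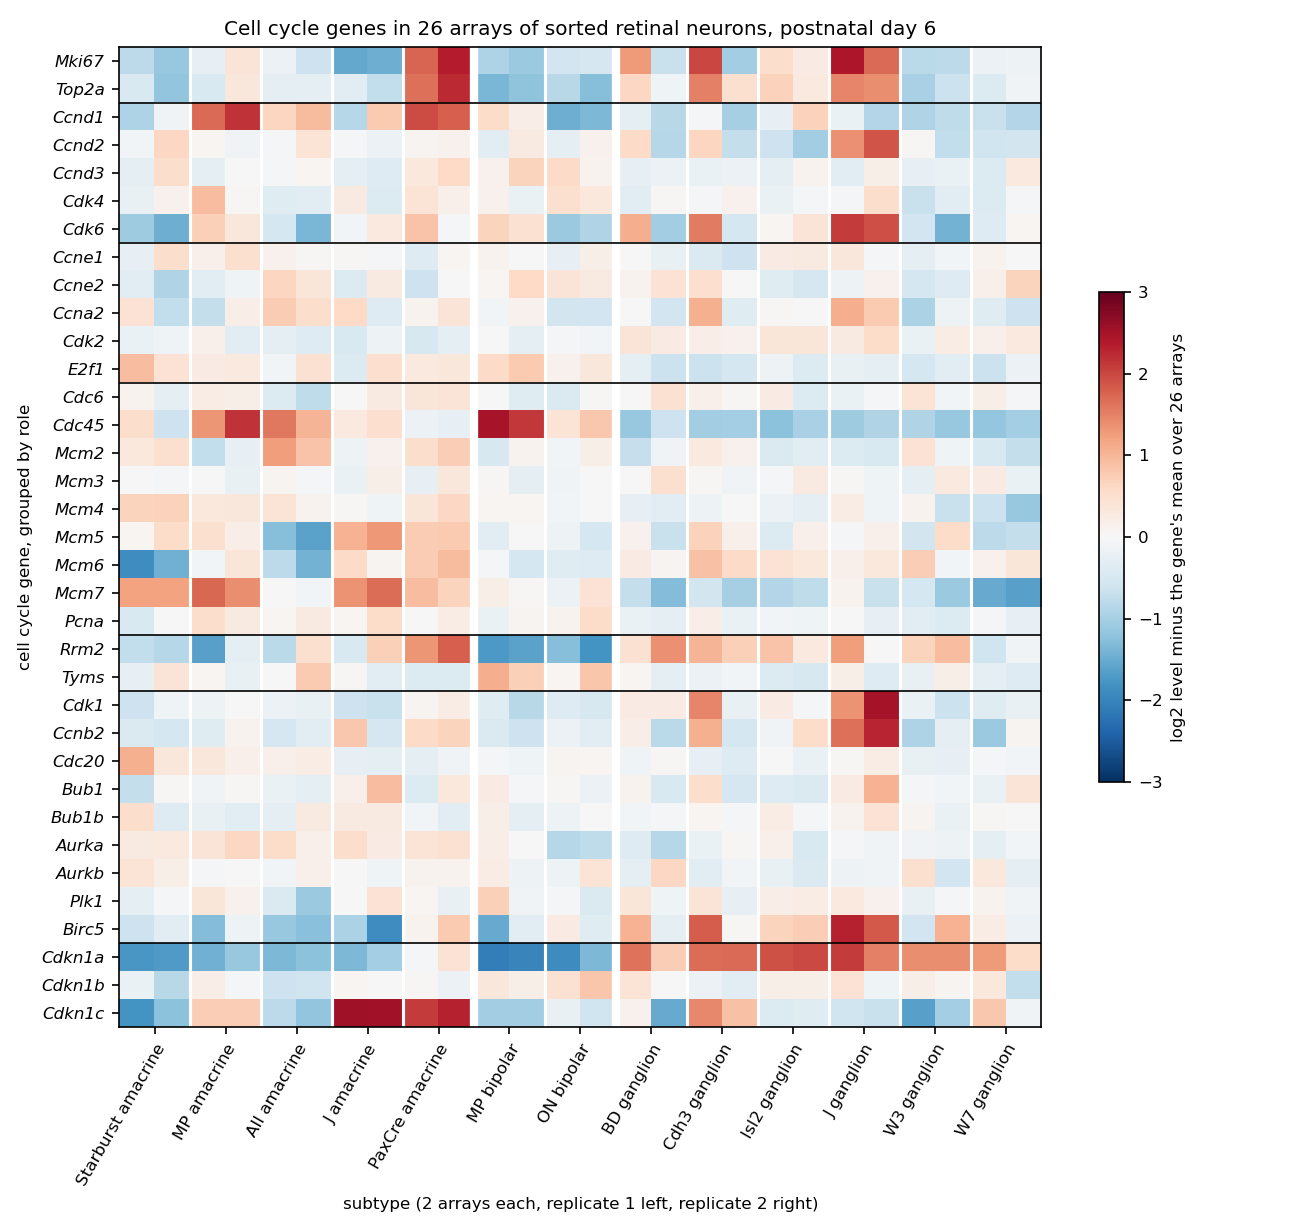
Levels of the 35 measured cell cycle genes in 26 arrays, as log2 level minus the gene's mean over all arrays (red above, blue below the mean, colours end at 3 either way). Columns are the 13 subtypes with replicate 1 left and replicate 2 right, and rows are grouped by role; Mki67 and Top2a are high in both PaxCre and both J ganglion arrays, Cdkn1a in all 12 ganglion arrays.

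In PaxCre amacrine cells, 7 of the 32 tested members were called higher and 1 lower than in the other amacrine subtypes. The 7 were the proliferation genes Mki67 and Top2a, the D-type cyclin gene Ccnd1, the replication genes Mcm6 and Rrm2 and the CDK inhibitor genes Cdkn1a and Cdkn1c, and the lower gene was the replication factor gene Cdc45. Over all tested genes, 4.97% were called higher and 1.56% lower. Both PaxCre arrays lay above every other amacrine array for 8 of the 32, where 5.86% of all tested genes did. The difference was above 0 for 25 of 35 measured members, with a median of 0.18 on the log2 scale against 0.0014 over all genes. PaxCre cells had the highest mean of the 5 amacrine subtypes for 11 of 35 members (31.4%, against 16% of all genes), as many as MP amacrine cells (11 of 35, against 20.9%). RNA was pooled from many cells, so more cells of a type and more RNA per cell cannot be told apart here or in any comparison that follows.

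Mki67, which encodes the nuclear antigen Ki-67 of dividing cells, had log2 levels of 7.93 and 8.54 in the PaxCre arrays. In the 8 other amacrine arrays it was lowest at 4.66 in J amacrine replicate 1, had a median of 5.47 and was highest at 6.57 in MP amacrine replicate 2. The groups did not overlap, and the PaxCre mean was 2.74 ± 0.52 log2 units higher (SE, n = 2 against 8 arrays; 6.70-fold; limma adjusted p = 0.00137). Without PaxCre replicate 2 the difference was 2.44 and the limma adjusted p 0.0610, and 4 members rather than 8 were called.

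Top2a encodes topoisomerase II alpha, which untangles replicated chromosomes. Its levels were 7.79 and 8.38 in PaxCre cells against 4.95 to 6.48 in the other amacrine arrays, a difference of 2.36 ± 0.28 on the log2 scale (SE; limma adjusted p = 1.05e-05) with no overlap. This rests on the brightest of 3 probe sets for Top2a: the other pair averaged 5.69 and 4.11 over the arrays, and differed by -0.16 and 0.08.

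Of the D-type cyclins and their kinases, only Ccnd1 was called among 5 tested. Ccnd1, which carries growth signals into the cycle, had log2 levels of 9.67 and 9.52 in PaxCre cells. These overlapped MP amacrine cells at 9.43 and 9.90 and lay above AII cells (8.36, 8.66), J amacrine cells (6.87, 8.50) and starburst cells (6.79, 7.62). The difference of PaxCre cells from the mean of the other subtypes was 1.33 ± 0.35 (SE; limma adjusted p = 0.0159), and without PaxCre replicate 1 or replicate 2 the adjusted p was 0.159 or 0.127. Its other 2 probe sets differed by 0.99 and 1.62. Ccnd2, Ccnd3, Cdk4 and Cdk6 differed by 0.02, 0.55, 0.28 and 0.80 and were not called. The E- and A-type cyclin genes Ccne1, Ccne2 and Ccna2 and their kinase gene Cdk2 differed by -0.30 to 0.16, none called.

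Among the replication licensing and fork genes, Mcm6 was called higher and Cdc45 lower of 9 tested. Mcm6, a subunit of the MCM helicase that opens replication origins, had log2 levels of 8.69 and 8.87 in PaxCre cells and 6.06 to 8.48 in the other amacrine arrays, without overlap. The difference was 1.43 ± 0.22 (SE; limma adjusted p = 0.00018), and 1.03 in its second probe set. Of the other MCM subunit genes, Mcm2, Mcm3, Mcm4, Mcm5 and Mcm7 differed by 0.40, 0.08, 0.18, 0.68 and -0.27 on the log2 scale, none of them called. The origin licensing gene Cdc6 differed by 0.46 and the sliding clamp gene Pcna by -0.05, neither called. Cdc45, which activates that helicase, was at 7.03 and 6.96 in PaxCre cells, inside the range of 6.59 to 9.38 of the other amacrine arrays. Its difference of -1.06 ± 0.26 (SE; limma adjusted p = 0.00866) was -0.39 (adjusted p = 0.519) with C57BL/6 subtypes alone, and the call was lost in 11 of 40 alternatives. Rrm2, a subunit of ribonucleotide reductase, which supplies DNA building blocks, had levels of 9.18 and 9.64 against 6.23 to 8.56, without overlap. It differed by 2.01 ± 0.40 (SE; limma adjusted p = 0.00196) and by 2.15 in its second probe set, with an adjusted p of 0.0755 when PaxCre replicate 2 was left out. Tyms, for thymidylate synthase in the same supply, was at 4.93 and 4.94 in PaxCre cells, below every other amacrine array (median 5.38), and was not called (difference -0.47).

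None of the 7 tested mitosis genes was called in PaxCre cells. Birc5, which encodes the chromosome passenger protein survivin, came closest at 6.38 and 7.06 on the log2 scale against 4.41 to 6.12, with no overlap and a difference of 1.40 ± 0.48 (SE; limma adjusted p = 0.0607). The mitotic kinase gene Cdk1 was at 6.37 and 6.51 against 5.63 to 6.29, a difference of 0.47 ± 0.31. Its cyclin gene Ccnb2 differed by 0.84 ± 0.40 and overlapped J amacrine replicate 1. The checkpoint genes Cdc20 and Bub1 and the kinase genes Aurka and Aurkb differed by -0.40, -0.03, 0.05 and 0.04. The second probe set of Cdc20, dimmer by its mean, differed by 1.12. Bub1b was not tested, and its dimmest of 3 probe sets, with a mean of 4.87, differed by 1.775. Its brighter probe sets differed by -0.22 and -0.09.

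Cdkn1a and Cdkn1c, 2 of the 3 CDK inhibitor genes, were called higher in the same cells. Cdkn1a, which encodes p21, had log2 levels of 8.19 and 8.65 in PaxCre cells and 6.47 to 7.20 in the other amacrine arrays, a difference of 1.57 ± 0.23 (SE; limma adjusted p = 0.000116). Its dimmer second probe set differed by -0.06. Cdkn1c, which encodes p57, had levels of 9.17 and 9.37 in PaxCre cells and 9.60 and 9.59 in J amacrine cells, and the remaining amacrine arrays reached at most 7.79. PaxCre cells differed from the mean of the other subtypes by 2.01 ± 0.31 (SE; limma adjusted p = 0.000191), a call kept in 40 of 40 alternatives. Cdkn1b, for p27, was bright in all 26 arrays at 10.17 to 11.83 and differed by 0.18.

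**Figure D2:**
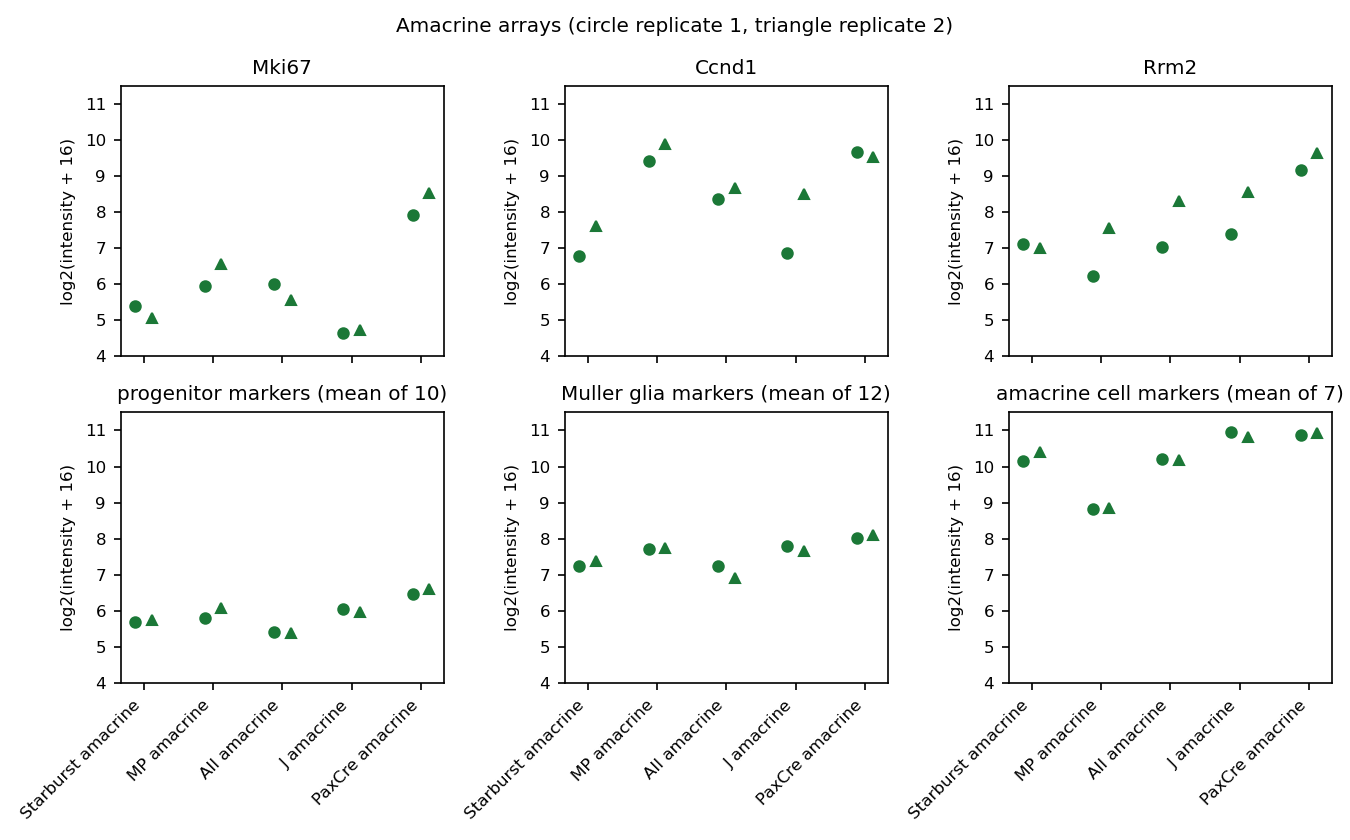
Log2 levels of Mki67, Ccnd1 and Rrm2 (top) and mean log2 levels of 3 marker lists (bottom) in the 10 amacrine arrays, circles for replicate 1 and triangles for replicate 2. PaxCre cells lie above the other subtypes for Mki67, Rrm2 and the progenitor list, and beside MP cells for Ccnd1.

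Markers of other cell types moved in the PaxCre sort as well. The mean log2 level of 10 progenitor markers was 6.46 and 6.61 in PaxCre cells against 5.37 to 6.08 in the other amacrine arrays, and 3 of the 8 tested were called higher, led by Lhx2 (2.94 ± 0.38, SE). That of 12 Müller glia markers was 8.03 and 8.09 against 6.92 to 7.80, with 3 called higher, led by Dkk3 (3.28 ± 0.27). Differences were above 0 for 7 of the 10 progenitor and 8 of the 12 Müller markers, with medians of 0.35 and 0.58. The lowest Müller difference was -1.01. Both PaxCre arrays lay above every other amacrine array for Glul (11.38 and 11.44, others at most 11.25), Clu (9.33 and 9.90, others at most 8.81) and Dkk3. For the rest of the Müller list they did not, and Rlbp1, Slc1a3 and Sox9 lay inside the range of the other amacrine arrays. The mean of 6 astrocyte markers was 6.22 and 6.41 against 5.78 to 6.17, and 1 of 4 tested was called higher, Aldoc (2.27 ± 0.27). Only 3 of these 6 differed by more than 0, with a median of 0.04 and a lowest difference of -0.53. Gfap, which defines astrocytes, lay inside the range of the other amacrine arrays. Across the 10 amacrine arrays, Mki67 correlated with the astrocyte mean at r = 0.706, the progenitor mean at 0.677 and the Müller mean at 0.575, and without the PaxCre arrays at -0.24, -0.18 and -0.08. Over these 8 arrays the rod list had r = 0.72, the microglia list 0.64, the bipolar list 0.58 and the ganglion cell list -0.10. The mural list had -0.24, the endothelial list -0.29 and the amacrine list -0.87. None of 11 tested microglia markers was called higher, and the microglia genes C1qa and Aif1 were at 4.21 to 4.79 in PaxCre cells. Of 9 tested mural cell markers none was called, and the largest difference was that of Rgs5, at 8.42 and 9.21 in PaxCre cells against 4.92 to 8.96 in the others (limma adjusted p = 0.0506). The 7 amacrine markers averaged 10.87 and 10.92 in PaxCre cells, within the range of 8.82 to 10.95 of the others, which does not show how many other cells the sort held. The part of these cell types in the cell cycle levels was not tested.

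In J ganglion cells, 6 of the 32 tested members were called higher than in the other ganglion subtypes and none lower. They were Mki67, Top2a, the G1 genes Ccnd2 and Cdk6 and the mitosis genes Cdk1 and Ccnb2. Over all tested genes, 1.63% were called higher and 0.416% lower. Both J arrays lay above every other ganglion array for 5 of the 32, where 3.83% of all tested genes did. The median difference of the 35 measured members was 0.20 on the log2 scale against -0.0275 over all genes, and 27 of 35 were above 0. J cells had the highest mean of the 6 ganglion subtypes for 17 of 35 members (48.6%), against 16% of all genes. The calls need both J arrays: 3 members were called without J replicate 1 and none without J replicate 2. When only the ganglion arrays were fitted none was called, with limma adjusted p of 0.0677 to 0.189 for these 6. A fit without Cdh3 replicate 1 and BD replicate 1 was chosen after seeing the data. These arrays were the highest of the other ganglion arrays for Mki67 and Cdk6. Leaving them out raises such differences by design, so that fit lends the calls no support.

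Mki67 had log2 levels of 8.61 and 7.87 in J ganglion cells. In the other 10 ganglion arrays the lowest was 5.13 in Cdh3 replicate 2, the median 6.03 and the highest 8.18 in Cdh3 replicate 1, which lies between the J values. The difference was 2.01 ± 0.51 (SE, n = 2 against 10, 4.04-fold, limma adjusted p = 0.0395). It was 2.51 without Cdh3 replicate 1 and BD replicate 1, the arrays with the highest Mki67 on that side. This call held in 20 of 39 alternatives and was lost in 19, and the difference ran from 1.45 to 2.51 over them. Top2a was at 7.62 and 7.53 in J cells and 7.66 in Cdh3 replicate 1, and the remaining ganglion arrays lay at 5.17 to 6.83. Its difference was 1.29 ± 0.28 (SE; limma adjusted p = 0.0146), and 0.23 in its second probe set.

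The G1 genes Ccnd2 and Cdk6 were called in J ganglion cells. Ccnd2 encodes cyclin D2 and had log2 levels of 7.49 and 8.01 in J cells against 5.08 to 6.77 in the other ganglion arrays, without overlap. The difference was 2.01 ± 0.34 (SE; limma adjusted p = 0.00359). Of 7 probe sets for Ccnd2, the brightest and the dimmest gave 2.01 and 1.80 and the other 5 gave -0.09 to 0.34. Cdk6, a partner of the D-type cyclins, was at 8.84 and 8.69 against 5.34 to 8.31, again without overlap and highest among the others in Cdh3 replicate 1. It differed by 2.10 ± 0.46 (SE; limma adjusted p = 0.0182), and by 0.85 in its second probe set. Ccnd1, Ccnd3 and Cdk4 differed by -0.04, 0.08 and 0.42. The cyclin A gene Ccna2 had levels of 9.14 and 8.83 beside 9.11 in Cdh3 replicate 1, and its difference of 1.13 ± 0.35 was not called (limma adjusted p = 0.0976). That difference was 1.33 without Cdh3 replicate 1 and BD replicate 1. The second probe set of Ccna2, above the overall median in all 26 arrays, differed by 0.33. Ccne1, Ccne2 and Cdk2 differed by 0.27, -0.02 and 0.20.

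None of the 9 replication genes or the 2 nucleotide supply genes was called in J ganglion cells. Mcm7 had the largest difference of these at 0.72 ± 0.22 (SE; limma adjusted p = 0.0868), and the others ranged from -0.24 for Mcm2 to 0.40 for Mcm4. Of 5 probe sets for Mcm3, the brightest differed by -0.12 and the dimmer ones by 1.02, 1.32, -0.065 and 0.119. Mcm6 and Rrm2, which were called in PaxCre cells, differed by -0.13 and 0.06 on the log2 scale.

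Of the 7 tested mitosis genes, Cdk1 and Ccnb2 were called in J ganglion cells. Cdk1 had log2 levels of 7.64 and 8.78 against 5.66 to 7.76 in the other ganglion arrays, where the highest, Cdh3 replicate 1, was the only array to reach the J range. Its difference was 1.86 ± 0.31 (SE; limma adjusted p = 0.00311). Ccnb2, for cyclin B2, was at 7.23 and 7.86 against 4.46 to 6.63 and differed by 2.16 ± 0.39 (SE; limma adjusted p = 0.00514), without overlap. Birc5 was at 8.57 and 8.10 against 5.71 to 8.10, with a difference of 1.61 ± 0.47 that was not called (limma adjusted p = 0.0748). That difference became 1.92 without Cdh3 replicate 1 and BD replicate 1. Bub1, a spindle checkpoint kinase gene, differed by 0.75 ± 0.29. Cdc20, an activator of mitotic exit, differed by 0.28 in its brightest probe set and by 2.07 in its second. Aurka and Aurkb differed by 0.16 and -0.05. The CDK inhibitor genes Cdkn1a, Cdkn1b and Cdkn1c differed by 0.38, 0.15 and -0.46, none called.

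**Figure D3:**
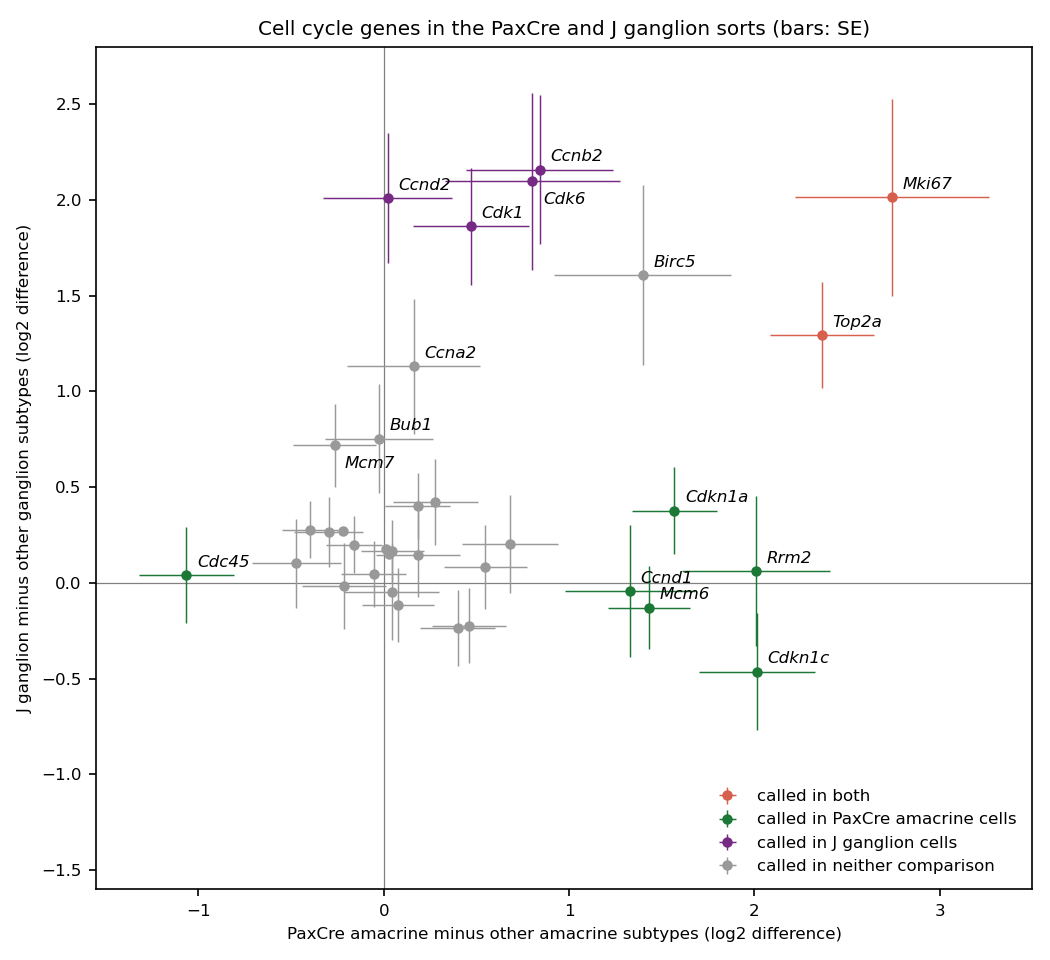
Log2 difference of each of the 35 measured members in PaxCre amacrine cells against the other amacrine subtypes (x axis) and in J ganglion cells against the other ganglion subtypes (y axis). Bars are standard errors, absent for the 3 untested members, and colours give the calls; Mki67 and Top2a lie high on both axes, Rrm2, Cdkn1c and Mcm6 along the x axis and Ccnd2 along the y axis.

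The difference between both effects was tested as an interaction, PaxCre minus J. It was called for 6 of 32 tested members, against 9.54% of all tested genes. The PaxCre effect was the larger for 4 CDK inhibitor and S phase genes, Cdkn1c (2.48 ± 0.44 on the log2 scale, SE; limma adjusted p = 0.00114), Rrm2 (1.95 ± 0.56; adjusted p = 0.0292), Mcm6 (1.56 ± 0.31; adjusted p = 0.00287) and Cdkn1a (1.19 ± 0.32; adjusted p = 0.0222). Ccnd2 (-1.99 ± 0.49; limma adjusted p = 0.0119) and Cdk1 (-1.39 ± 0.44; adjusted p = 0.0455) had the larger effect in J ganglion cells. With the next brightest probe set the value of Cdkn1a became -0.70 and that of Ccnd2 0.57, and the Cdk1 call was lost in 25 of 39 alternatives, with adjusted p of 0.0034 to 0.329. Without PaxCre replicate 2, 2 members were called, and 3 without PaxCre replicate 1 or without J replicate 2. Mki67 and Top2a differed between both effects by 0.73 and 1.07 and were not called.

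**Figure D4:**
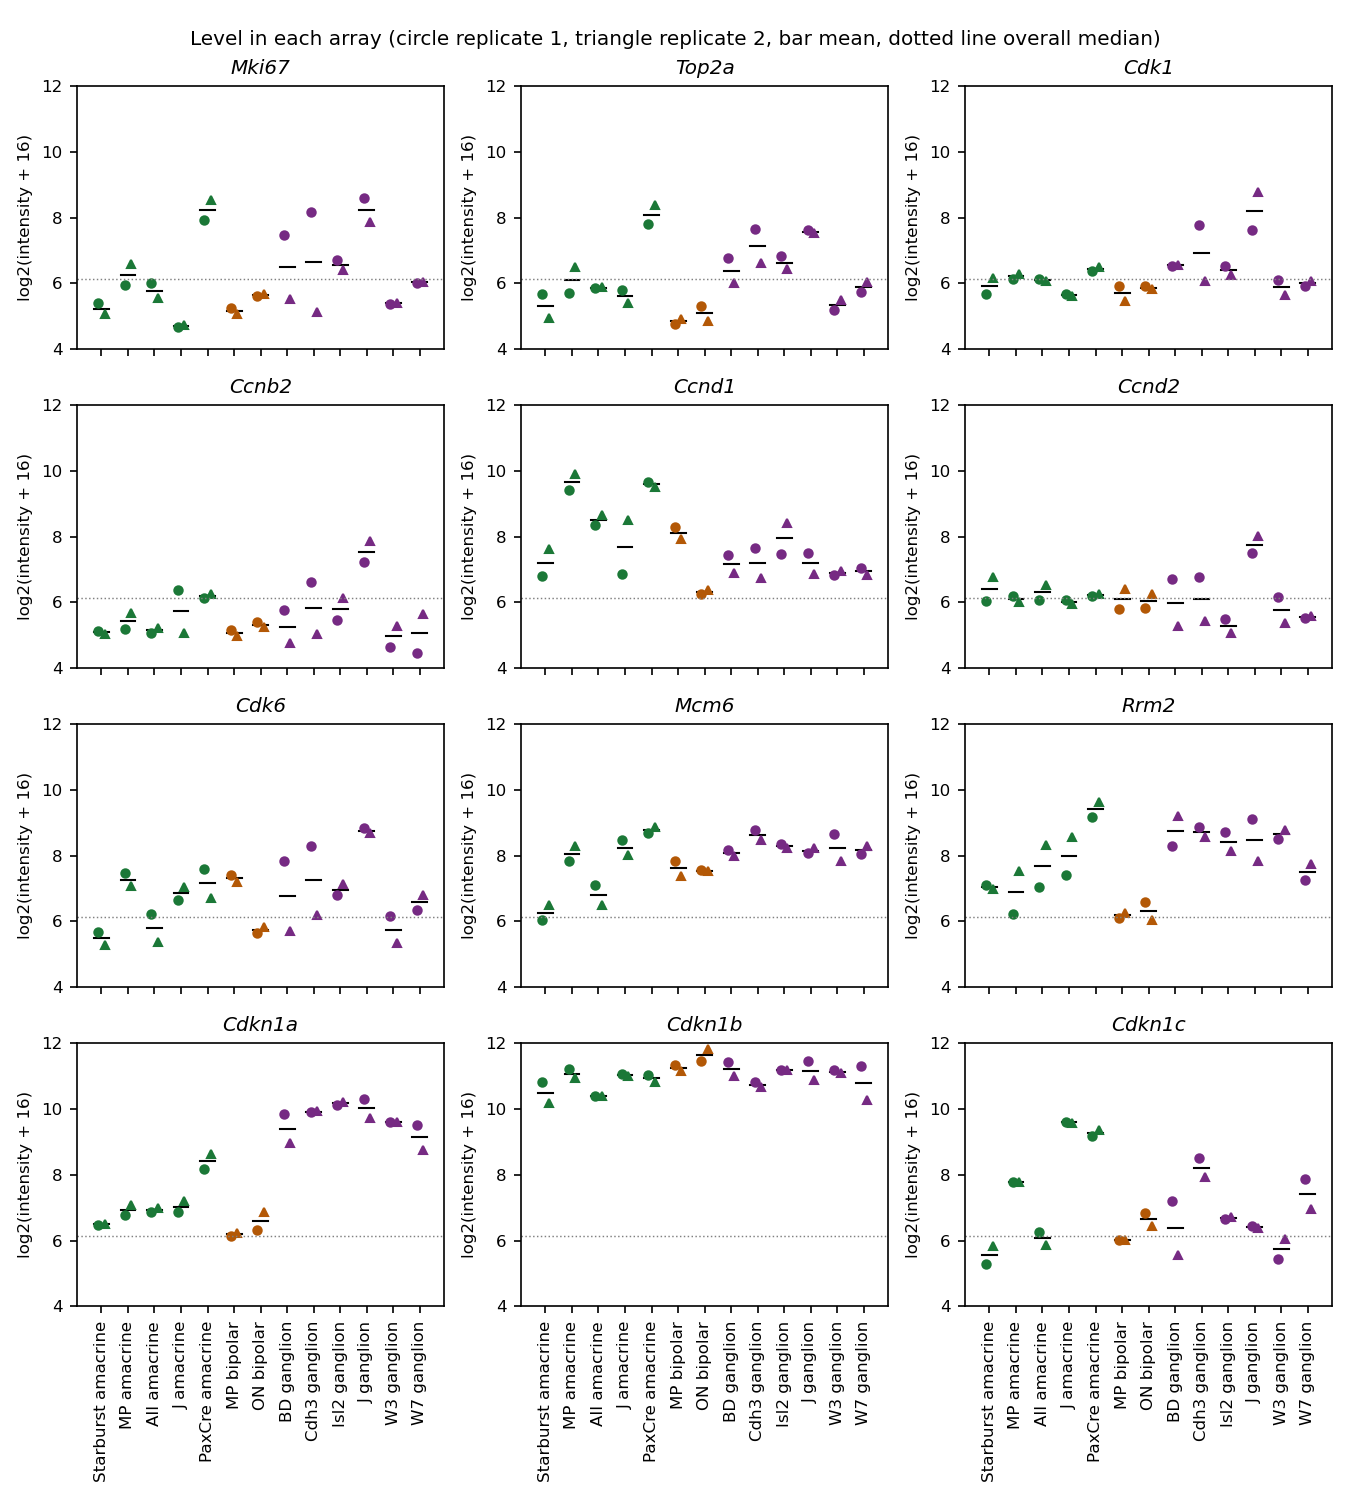
Log2 level of 12 members in every array, grouped by subtype (green amacrine, orange bipolar, purple ganglion), with circles for replicate 1, triangles for replicate 2, bars for subtype means and a dotted line at the overall median of 6.14. Cdkn1a lies at 8.77 to 10.32 in ganglion arrays and at 6.47 to 8.65 in amacrine arrays, and the Cdh3 and BD replicates lie apart for Mki67 and Cdk6.

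Replicates of Cdh3 and BD ganglion cells lay apart for several of the genes called in J cells. In Cdh3 ganglion cells, Mki67 was at 8.18 in replicate 1 and 5.13 in replicate 2, a gap of 3.05 on the log2 scale. Replicate 1 was also above replicate 2 for Cdk6 (8.31 and 6.21), Birc5 (8.10 and 6.31), Cdk1 (7.76 and 6.07), Ccnb2 (6.63 and 5.05) and Ccna2 (9.11 and 7.67). In BD ganglion cells, Mki67 was at 7.46 and 5.51 and Cdk6 at 7.84 and 5.70. The median gap between replicates over the members was smaller, at 0.30 in Cdh3 and 0.50 in BD cells. W3 cells were low in both arrays for Mki67 (5.38, 5.41), as were W7 cells (6.02, 6.04), and Isl2 cells lay between at 6.70 and 6.42.

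Across the 12 ganglion arrays, which share their scale and some of which are replicates of each other, the member most like Mki67 was Cdk6, with Pearson r = 0.953 and Spearman rho = 0.909, and r = 0.927 without J replicate 1 and Cdh3 replicate 1. Ccna2 (r = 0.907), Birc5 (0.878), Top2a (0.864), Plk1 (0.849), Ccnb2 (0.846), Cdk1 (0.817) and Ccnd2 (0.809) followed. Among genes called in PaxCre cells, Rrm2 had r = 0.10 and Mcm6 r = 0.12 here. Across the 10 amacrine arrays, Top2a was most like Mki67 (r = 0.945, rho = 0.818, and r = 0.688 without the PaxCre arrays). Cdk1 (r = 0.848, and 0.779 without the PaxCre arrays) and Ccnd1 (r = 0.716, and 0.722) kept their likeness without PaxCre cells, and Cdkn1a (0.863, and 0.122) and Rrm2 (0.613, and -0.33) did not.

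Markers of other cell types stood out in the J ganglion sort. The 10 mural cell markers, of pericytes and vascular smooth muscle, had mean log2 levels of 8.54 and 9.16 in J cells against 5.39 to 8.64 in the other ganglion arrays, and 6 of the 9 tested were called higher, led by Abcc9 (3.32 ± 0.80, SE). Pdgfrb, the pericyte receptor gene, differed by 3.55 ± 0.97 and was not called (limma adjusted p = 0.0556). The 12 microglia markers averaged 9.36 and 10.06 against 6.05 to 9.33, with 2 of 11 tested called higher, Aif1 and Fcer1g, and the largest difference was that of Tyrobp at 2.37 ± 0.72 (not called). Of 12 Müller glia markers 2 were called higher, led by Apoe (3.12 ± 0.82), and of 8 tested progenitor markers 2, led by Id3 (2.68 ± 0.53). Differences were above 0 for 9 of the 12 Müller and 8 of the 10 measured progenitor markers, with medians of 0.29 and 0.25. The mean of the Müller list was 8.38 and 8.30 in J cells against 7.31 to 8.03 in the other ganglion arrays. Both J arrays lay above every other ganglion array for Glul (11.84 and 11.92, others at most 11.74), Kcnj10 (6.20 and 7.175, others at most 5.64) and Apoe. For the rest of the Müller list they did not, and Slc1a3 and Sox9 lay inside the range of the other ganglion arrays. None of the 8 endothelial markers bright enough to be tested was called, and the mean of all 13 measured was 5.92 and 5.95 against 5.78 to 5.89. Pecam1 was at 5.08 to 5.24 in J cells, and Egfl7 (7.58 to 7.64) and Kdr (7.12 to 7.57) were brighter. Each of these genes lay inside the range of the other ganglion arrays. Of 7 amacrine markers 3 were called higher, led by Gad1 (2.61 ± 0.37). The 7 amacrine markers averaged 8.42 and 7.38 in J cells against 6.43 to 7.19 in the other ganglion arrays. The 9 ganglion cell markers averaged 11.11 and 11.27 in J cells, within the 10.82 to 11.51 of the others. Such a mean does not show how many other cells a sort held.

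Of 12 ganglion arrays, both J arrays and replicate 1 of Cdh3 and BD cells were highest in Mki67 and in the mural list. In Cdh3 cells the mural mean was 8.64 in replicate 1 and 6.87 in replicate 2, and the microglia mean 9.08 and 6.05. In BD cells the mural mean was 7.79 and 5.57, and the microglia mean 8.73 and 8.10. Isl2 cells had microglia means of 9.01 and 9.33, near that of Cdh3 replicate 1, with a lower Mki67 (mean 6.56). Across the 12 ganglion arrays, Mki67 correlated with the means of the progenitor list at r = 0.899, the Müller list at 0.892, the mural list at 0.815 and the microglia list at 0.788. The rod list, of a postmitotic photoreceptor type, had r = 0.783, the endothelial list 0.633, the amacrine list 0.594, the bipolar list 0.331, the ganglion cell list -0.13 and the astrocyte list -0.24. These correlations describe arrays that include replicates and a common scale. The part of these cell types in the cell cycle levels of the J, Cdh3 and BD sorts was not tested.

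**Figure D5:**
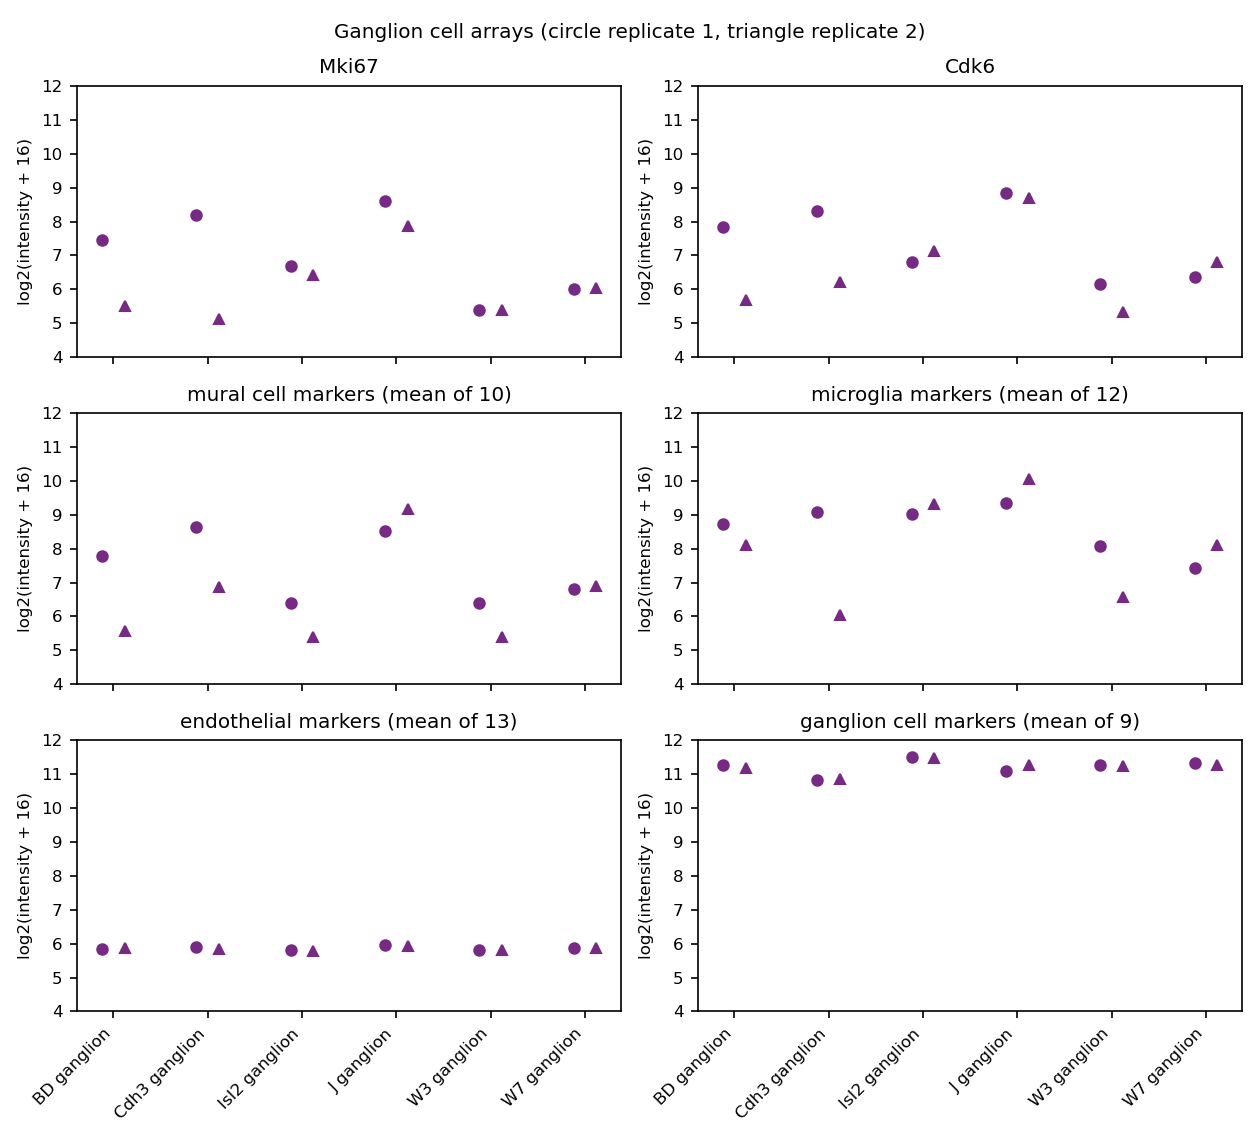
Log2 levels of Mki67 and Cdk6 and mean log2 levels of 4 marker lists in the 12 ganglion arrays, circles for replicate 1 and triangles for replicate 2. The mural list follows Mki67 in being high in both J arrays and in replicate 1 of Cdh3 and BD cells, while the endothelial list stays between 5.78 and 5.95 in every array. The progenitor list, not plotted, is highest in the same arrays as the mural list.

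Other cell cycle genes were counted in 3 lists. Of 31 tested genes of G1/S and the S phase, 2 were called higher in PaxCre cells and none lower, Uhrf1 (2.15 ± 0.43 on the log2 scale, SE), which copies DNA methylation after replication, and the uracil repair gene Ung (1.31 ± 0.36). Of 44 tested genes of G2 and mitosis, 3 were called higher, the kinetochore gene Spc25 (1.65 ± 0.25), the passenger complex gene Cdca8 (1.22 ± 0.20) and the condensin gene Ncapg (1.16 ± 0.37). Over all tested genes 4.97% were called higher in this comparison. The median differences of all measured genes of both lists were 0.16 and 0.15, against 0.0014 over all genes. In J ganglion cells none of the 31 tested G1/S genes and 4 of the 44 tested mitosis genes were called, all higher, where 1.63% of all tested genes were. The 4 were the centromeric histone gene Cenpa (2.05 ± 0.35), the kinase gene Pbk (1.26 ± 0.22), the spindle gene Nusap1 (1.12 ± 0.29) and the chromatin gene Hmgb2 (1.10 ± 0.29). The median difference in J cells was -0.08 for the G1/S genes and 0.39 for the mitosis genes, against -0.0275 over all genes. None of 25 tested brake and E2F family genes was called in either sort.

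Between classes, Cdkn1a showed the largest difference of the members. It had log2 levels of 8.77 to 10.32 in the 12 ganglion arrays, 6.47 to 8.65 in the 10 amacrine arrays and 6.15 to 6.88 in the 4 bipolar arrays, and ganglion and amacrine arrays did not overlap, as was so for 10.2% of all tested genes with ganglion arrays the higher. The ganglion mean was 2.55 ± 0.13 higher (SE; limma adjusted p = 2.44e-12). In this comparison 5 of 32 tested members were called, against 24.8% of all tested genes: Birc5 was higher as well (1.40 ± 0.26; adjusted p = 0.000114), and Mcm7 (-1.88 ± 0.12; limma adjusted p = 9.95e-11), Cdc45 (-1.66 ± 0.14; adjusted p = 4.8e-09) and Ccnd1 (-1.31 ± 0.19; adjusted p = 7.31e-06) were lower in ganglion cells. Mcm7 reached 7.11 to 8.85 in ganglion and 8.66 to 10.48 in amacrine arrays, and Cdc45 5.96 to 6.57 and 6.59 to 9.38. As deposited, without normalization between arrays, the median of all genes was 0.53 higher in ganglion cells, 85.8% of calls were higher against 63.7%, and 6 members were called higher and 2 lower, with Ccnd1 at -0.77 and not called. The Ccnd1 call was lost in 5 of 42 alternatives, and its difference was -0.36 with the median over probe sets, -0.0871 with the next brightest probe set and -0.94 with C57BL/6 subtypes only. These errors come from replicates within subtypes and hold for the subtypes sampled.

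Bipolar cells were lower than amacrine cells for 4 of 32 tested members, against 5.7% of all tested genes called lower. These were Rrm2 (-1.55 ± 0.30 on the log2 scale, SE; limma adjusted p = 0.000538), Ccnd1 (-1.32 ± 0.26; adjusted p = 0.000705), Cdkn1c (-1.32 ± 0.23; adjusted p = 0.000242) and Top2a (-1.23 ± 0.21; adjusted p = 0.000181). Rrm2 lay at 6.05 to 6.58 in the 4 bipolar arrays and at 6.23 to 9.64 in amacrine arrays. Top2a had bipolar levels of 4.77 to 5.32 and Mki67 of 5.07 to 5.68. None of the 4 calls was made with subtype means as units. With the next brightest probe set the difference of Top2a was 0.15 and that of Ccnd1 -0.27, and with the median over probe sets -0.12 and -0.79, none of these called. ON bipolar cells were lower than MP bipolar cells for Ccnd1 (6.25 and 6.38 against 8.28 and 7.92) and Cdc45 (7.61 and 8.02 against 9.68 and 9.33), 2 calls against 5.03% of all tested genes.

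Within the amacrine class, 15 of 32 tested members varied over the 5 subtypes by a moderated F test in limma, against 52.5% of all tested genes. Within the ganglion class 6 did, against 6.38%: Top2a, Ccnd2, Cdk6, Cdk1, Ccnb2 and Cdkn1c. Cdkn1c had the widest amacrine range, from 5.27 in starburst replicate 1 to 9.60 in J amacrine cells, and in ganglion cells it was highest in Cdh3 cells (8.50 and 7.94; difference 1.69 ± 0.31, SE; limma adjusted p = 0.00259), the only member called there, against 2.08% of all tested genes.

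Starburst cells were called lower for Top2a, Ccnd1, Mcm6 and Cdkn1c, 4 members against 10.9% of all tested genes. The Mcm6 levels of starburst cells were 6.06 and 6.49. AII cells were lower for Mcm5, Mcm6, Mcm7 and Cdkn1c, against 16.2%, with Mcm5 at 6.31 and 5.98 on the log2 scale where the other amacrine arrays had 7.65 to 8.88. MP amacrine cells were higher for Ccnd1 and Cdc45 and lower for Mcm2 and Rrm2, against 10.4%. J amacrine cells were higher for Mcm5 (8.63, 8.88) and Cdkn1c and lower for Mki67 (4.66, 4.73), against 6.06%. Of the 13 subtypes, the amacrine sort labelled J had the lowest Mki67 mean (4.69) and the Thy1+ ganglion sort labelled J the highest (8.24), level with PaxCre cells (8.23) within the spread of their replicates, a pair noted after its values were seen. W3 ganglion cells were lower for Top2a (5.17, 5.49), against 0.803%. No member was called in BD, Isl2 or W7 ganglion cells, where 0.495%, 0.222% and 1.37% of all tested genes were.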

How the data were processed

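Sorted retinal neurons of 13 subtypes were measured on 26 single-colour Affymetrix arrays, 2 per subtype. Values are linear intensities as deposited by the authors, with software and scaling not given in the sources used here; 2.90% to 4.02% of an array's values lie at or below 1. Values were taken as log2(intensity + 16) and quantile normalized. Symbols came from the platform's probe table (34945 probe sets with a single symbol, 34741 updated by gene identifier, 932 with several and 9160 with none left out), and the brightest probe set stood for each gene. Of 18193 genes, 13951 had at least 2 arrays above the overall median and were tested.

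A mean per subtype was fitted with limma 3.58.1 (R 4.3.3; 13 residual degrees of freedom). Each side of a comparison averaged its subtypes equally, and tests were two-sided with Benjamini-Hochberg adjustment over all tested genes within each of 15 comparisons. The script was tested on simulated data. Replicate numbers were not used as pairs in the main fit. Over 78 pairs of subtypes, deviations of same-numbered arrays correlated at -0.23 to 0.37 with a median of 0.03. In 21 pairs the correlation exceeded 0.1, so effects shared by same-numbered arrays of some subtypes are not excluded. Correlations were taken over arrays of a class. All 36 members are accounted for, with array values for those called in the PaxCre or J ganglion comparison; of the other cell cycle genes, at most the 4 largest called differences in each direction are named, and of markers those that lead a list or define a cell type. A gene named outside that rule was chosen after its values were seen: Ccna2, Birc5, Cdc20, Tyms, Fcer1g, Ncapg, Glul, Clu, Kcnj10, Egfl7 and Kdr. The members, gene lists and the 2 sorts set in front were chosen with earlier results of these data known. Each array also held 64 controls beside its 45037 probe sets, left out here. Protein and probe sequences were not used here.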

Additional observations from a re-analysis of the deposited data

Results flagged for a closer look

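Among the 105 groups of arrays examined, 4 (3.81%) had a member with a single array far from the others, where chance gives about 1 in 20. Within the 10 ganglion arrays other than J, Cdh3 replicate 1 stood above the rest for Ccna2 (9.11 on the log2 scale, next 8.09) and Cdk1 (7.76, next 6.55), and W3 replicate 1 stood below them for Cdk2 (6.78, next 7.10). Among the 8 amacrine arrays other than PaxCre, starburst replicate 1 stood above for Cdc20 (8.86, next 8.13). The cause of these values was not tested.

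For 6 members the PaxCre and the J ganglion effects differed by a test of the difference itself in limma. The PaxCre effect minus the J effect was 2.48 for Cdkn1c, 1.95 for Rrm2, 1.56 for Mcm6, 1.19 for Cdkn1a, -1.39 for Cdk1 and -1.99 for Ccnd2 on the log2 scale.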

How the results depend on the processing

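In PaxCre amacrine cells against other amacrine cells, 8 members were called, 5 with the median over probe sets and 4 with the next brightest probe set; leaving out single arrays gave 4 to 9, and over all genes 614 to 991 against 912, with 597 at a pseudocount of 64. In J ganglion cells against other ganglion cells, 6 were called, 1 with the stricter filter (13 arrays above the median) and 0 with ganglion arrays alone; leaving out single arrays gave 0 to 8, and over all genes 41 to 395 against 285, with 145, 78 and, without Cdh3 replicate 1 and BD replicate 1 (added after seeing the data), 438. The PaxCre effect minus the J ganglion effect gave 6 members, 3 with the next brightest probe set and 2 to 7 over single arrays left out, and over all genes 1331, 831 with C57BL/6 subtypes only and 681 to 1473. Ganglion against amacrine cells gave 5, 8 as deposited, 9 with normalization within each set of arrays and 5 in each left-out fit. Bipolar against amacrine cells gave 4, 2 with the median or next brightest probe set, 7 with C57BL/6 subtypes only, 0 with subtype means as units and 4 to 5 over left-out arrays. Each other subtype versus the rest of its class gave 19 calls, 12 at a pseudocount of 64, 7 and 8 with the median and next brightest probe set, 11 with C57BL/6 subtypes only and 14 to 26 over left-out arrays. Variation over amacrine subtypes was called for 15, 8 with C57BL/6 subtypes only and 12 to 16; variation over ganglion subtypes for 6, 1 with the stricter filter, 1 with ganglion arrays alone, 10 without Cdh3 replicate 1 and BD replicate 1 and 3 to 9. Sign turned with the next brightest probe set for Top2a in PaxCre cells (-0.16, and -0.0903 with the median over probe sets), Top2a in bipolar against amacrine cells (0.15), Cdkn1a in PaxCre cells (-0.0564) and in the PaxCre minus J effect (-0.70), and Ccnd2 in that effect (0.57); the cause was not tested. With the replicate number as a block the counts were 8 for PaxCre, 6 for J, 6 for their difference, 5 and 4 between classes, 21 over the other subtypes, and 15 and 6 for the variation over amacrine and ganglion subtypes.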
